A study of Mus musculus with 8 samples.

Results

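The proteasome genes of the mouse were followed in round spermatids, which are haploid male germ cells just after meiosis, across 4 genotypes of Miwi (Piwil1). A gene was taken when its symbol starts with Psma, Psmb, Psmc, Psmd, Psme, Psmf or Psmg and a digit, on an array cluster that names 1 gene, and each gene was read on the cluster with the highest mean. This gave 50 of the 19938 genes measured. Of these 50, 48 encode parts, assembly chaperones, activators or the inhibitor of the proteasome. The other two, Psmc3ip (a cofactor of meiotic recombination, also called HOP2) and Psme3ip1 (a partner of the activator PSME3), share only the symbol. Some partners of the proteasome, such as Pomp, Sem1 and Usp14, carry other symbols and are given apart.

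The samples were total RNA of round spermatids purified from testes of adult C57BL/6 mice on an albumin gradient, with the spermatid fractions pooled before extraction. MIWI is a PIWI protein that binds piRNAs in male germ cells, and the series asked about its catalytic activity. A wild-type allele was present in MIWI +/-, beside a null allele, and in MIWI +/KI, beside a knock-in allele. Neither MIWI -/- (null alleles only) nor MIWI -/KI (knock-in beside null) had one. What the knock-in changes is not in the labels, and no genotype had both wild-type alleles, so every comparison is between carriers of a null or knock-in allele. Each genotype had 2 arrays, called biological replicates. The sources used here do not say whether a replicate was 1 mouse or a pool, so p-values measure only the spread between these preparations. The mice are not described as treated with any agent, and the age is given as adult only.

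The proteasome degrades proteins tagged with ubiquitin. Its core particle, 20S, is a barrel of outer alpha rings and inner beta rings, and 3 of the beta subunits, PSMB5, PSMB6 and PSMB7, cut proteins. The regulatory particle, 19S, binds ubiquitin chains, unfolds the substrate with a ring of ATPases and feeds it into the barrel. In male germ cells the alpha subunit PSMA8 can replace PSMA7, and the activator PSME4 (PA200) can cap the barrel in place of 19S. Such spermatoproteasomes are known for meiosis and for histone removal in spermatids.

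Proteasome genes are commonly driven by the transcription factor NFE2L1 through antioxidant response elements. The bases before the start sites are therefore shown for some members on which the values below turn and for a pair of catalytic subunits. The promoters of Psmd2, Psmc4 and Psma6, whose RNA also differed in a test below, are not printed. RefSeq promoters (GRCm38.p6) matched 42 of the 50 genes by symbol, and Psma8, Psmb1, Psmb2, Psmb7, Psmc3, Psmd3, Psmd7 and Psmg2 had none. Each line runs 5′ to 3′ on the gene's own strand over the 250 bases before the start. Capitals mark a match, on either strand, to 1 of 4 motifs. These are the core of the antioxidant response element, TGACNNNGC, and the cAMP response element, TGACGTCA. The others are the box CCAAT and the core site of ETS factors, CCGGAA. Psmd1 (chr1:86064369-86064618, plus strand), Psmd6 (chr14:14120946-14121195, minus strand), Psmc1 (chr12:100109952-100110201, plus strand) and Psmf1 (chr2:151741311-151741560, minus strand) are printed because their RNA differed between genotypes. Psmb5 (chr14:54617996-54618245, minus strand) and Psmb6 (chr11:70525107-70525356, plus strand) are printed because they are catalytic subunits whose promoters hold the element.
Psmd1: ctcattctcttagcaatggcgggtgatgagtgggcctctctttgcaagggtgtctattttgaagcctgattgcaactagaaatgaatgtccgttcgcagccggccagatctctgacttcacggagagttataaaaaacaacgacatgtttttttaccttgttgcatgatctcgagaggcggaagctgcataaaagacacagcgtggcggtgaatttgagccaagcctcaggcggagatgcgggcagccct
Psmd6: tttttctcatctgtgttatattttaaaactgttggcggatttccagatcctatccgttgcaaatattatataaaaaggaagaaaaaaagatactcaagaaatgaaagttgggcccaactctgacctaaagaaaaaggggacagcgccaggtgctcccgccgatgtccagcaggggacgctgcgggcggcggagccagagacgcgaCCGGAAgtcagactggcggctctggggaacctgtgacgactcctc
Psmc1: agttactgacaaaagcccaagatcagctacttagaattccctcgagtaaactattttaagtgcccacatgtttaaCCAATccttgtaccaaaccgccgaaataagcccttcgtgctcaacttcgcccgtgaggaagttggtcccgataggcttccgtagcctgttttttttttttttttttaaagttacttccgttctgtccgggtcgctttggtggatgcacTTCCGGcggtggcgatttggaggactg
Psmf1: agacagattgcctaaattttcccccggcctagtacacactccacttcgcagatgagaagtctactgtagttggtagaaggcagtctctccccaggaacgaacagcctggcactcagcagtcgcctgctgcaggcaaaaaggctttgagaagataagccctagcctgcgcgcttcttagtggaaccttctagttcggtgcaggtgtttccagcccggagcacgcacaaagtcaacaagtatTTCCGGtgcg
Psmb5: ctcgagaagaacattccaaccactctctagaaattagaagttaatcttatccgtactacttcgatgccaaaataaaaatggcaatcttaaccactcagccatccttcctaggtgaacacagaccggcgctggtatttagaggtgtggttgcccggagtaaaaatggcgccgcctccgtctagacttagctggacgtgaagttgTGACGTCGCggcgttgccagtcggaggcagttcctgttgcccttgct
Psmb6: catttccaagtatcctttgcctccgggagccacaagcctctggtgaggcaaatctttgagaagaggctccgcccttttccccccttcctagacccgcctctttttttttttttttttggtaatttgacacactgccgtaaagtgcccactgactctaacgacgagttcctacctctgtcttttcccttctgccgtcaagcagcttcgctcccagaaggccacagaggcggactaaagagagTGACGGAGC
In these lines Psmd1 had no match, Psmd6 and Psmf1 each had the ETS core, and Psmc1 had CCAAT and the ETS core. In Psmf1 and Psmc1 the ETS core is on the opposite strand, so the line shows its reverse complement, TTCCGG. Shares count genes with a match in any of their promoters, against all 27025 genes with a RefSeq promoter, measured on the array or not. The element TGACNNNGC lay in 5 of the 42 genes (11.9%), against 11.5%. Its members were Psmb5, Psmb6, Psmc6, Psmd9 and Psmd12, and its nearest base lay 39 bases before the start in Psmb5 and 1 base before it in Psmb6. CCAAT lay in 16 of 42 (38.1%, against 37.5%), and TGACGTCA in 0 of 42 (against 1.77%). The ETS core, added to the search after the sequences were read, lay in 18 of 42 (42.9%, against 13.6%). No match of 1 motif overlapped a match of another motif in the members' promoters. Of the 6 members with a promoter that passed the test between arrays without and with a wild-type allele, 4 held the ETS core, 1 held CCAAT and 0 held TGACNNNGC. A match describes letters and shows no binding.

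Array medians ran from 66.6 to 71.8 in intensity, and precision is limited by how few arrays there are. Piwil1 read 389 and 371 in MIWI +/-, 679.8 and 749 in MIWI +/KI, 196 and 151 in MIWI -/-, and 672 and 696 in MIWI -/KI. It was lower in MIWI -/- than in MIWI +/- by a log2 difference of -1.14 (SE 0.17, adjusted p 0.00771), though the sources do not say which exons the null allele lacks. None of the 16 round spermatid markers measured was below the median on all arrays, and their summed intensity was 45110 to 47650 in MIWI +/-, 35410 to 37240 in MIWI +/KI, 21850 to 23570 in MIWI -/- and 25340 to 26340 in MIWI -/KI. Of these 16, 7 fell without a wild-type allele (Tnp1, Tnp2, Prm1, Prm2, Odf1, Tssk3 and Akap4) and 0 rose, against 3.93% and 4.33% of all genes. Prm2 fell by 2.41 (SE 0.13, adjusted p 4.02e-05) on the log2 scale. In MIWI -/- against MIWI +/-, 8 of the 16 fell and 1 rose, the acrosomal protease gene Acr (0.77, adjusted p 0.0208). In both pairs of genotypes that share no array, 8 of 16 were lower (all genes 5955 of 19938) and 1 higher (all genes 5386 of 19938). The part of this shift in the proteasome values was not tested. Markers of other testis cells were present on all arrays, with none at 0. Of 19 Sertoli cell markers measured, 4 fell without a wild-type allele (Wt1, Aard, Tsx and Defb19), and 17 of 19 had negative differences, with a median of -0.56. The same number, 17 of 19, were lower in both pairs of genotypes that share no array (all genes 5955 of 19938), and 0 were higher in both. Their summed intensity was 3891 to 4351 in MIWI +/-, 2993 to 3720 in MIWI +/KI, 2304 to 3149 in MIWI -/- and 2531 to 2923 in MIWI -/KI. Of 12 blood and macrophage markers 2 fell (Alas2 and Aif1). Of these 12, 5 were lower in both pairs of genotypes that share no array and 3 higher in both. Aif1 read 732 to 1680 over the arrays, while Ptprc read 52.2 to 68.6 and Csf1r 79.7 to 122.6. Of 15 peritubular and vascular markers 1 rose (Acta2), and of 15 spermatogonial markers 1 rose (Lin28a). Of 23 spermatocyte markers 1 rose (Meioc) and 1 fell (Syce2). In RNA of a cell fraction, fewer cells of a type and less RNA per cell cannot be told apart.

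A small set of proteasome genes differed with the wild-type allele, and 42 of the 50 did not pass that test. Arrays of mice without a wild-type allele (MIWI -/- and MIWI -/KI) had more RNA of the 19S subunits Psmd1, Psmd2, Psmd6, Psmc1 and Psmc4, of the 20S subunit Psmb1 and of the germ cell subunit Psma8, and less of the inhibitor Psmf1. These 8 of the 50 genes (16%) passed an adjusted p of 0.05, against 8.26% of all genes, with 7 higher (all genes 4.33%) and 1 lower (all genes 3.93%). The median log2 difference of the 50 genes was 0.21, against -0.01 over all genes, and 38 of the 50 were positive. MIWI -/- against MIWI +/- gave 3 of 50, against 6.13% of all genes, with Psma8 and Psmd1 higher (all genes 2.6%) and Psma6 lower (all genes 3.53%). The count for MIWI -/KI against MIWI +/- was 3 of 50, against 6.23%, with Psma8 and Psmd1 higher (3.11%) and Psmf1 lower (3.12%). In these 2 comparisons the members' share, 6%, lies near the background. Against MIWI +/KI, MIWI -/KI had 2 of 50, against 2.43%, with Psmc1 and Psmd6 higher (1.14%) and 0 lower (1.29%). Comparisons against MIWI +/- share those 2 arrays. Counted without a test, the arrays of the 2 sides did not overlap in 8 genes that were higher (all genes 9.38%) and 1 lower (all genes 6.54%) without a wild-type allele. In MIWI -/- against MIWI +/- this was 12 higher (27%) and 6 lower (22.4%). All 9 genes that passed in any comparison are plotted by array.

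**Figure D1:**
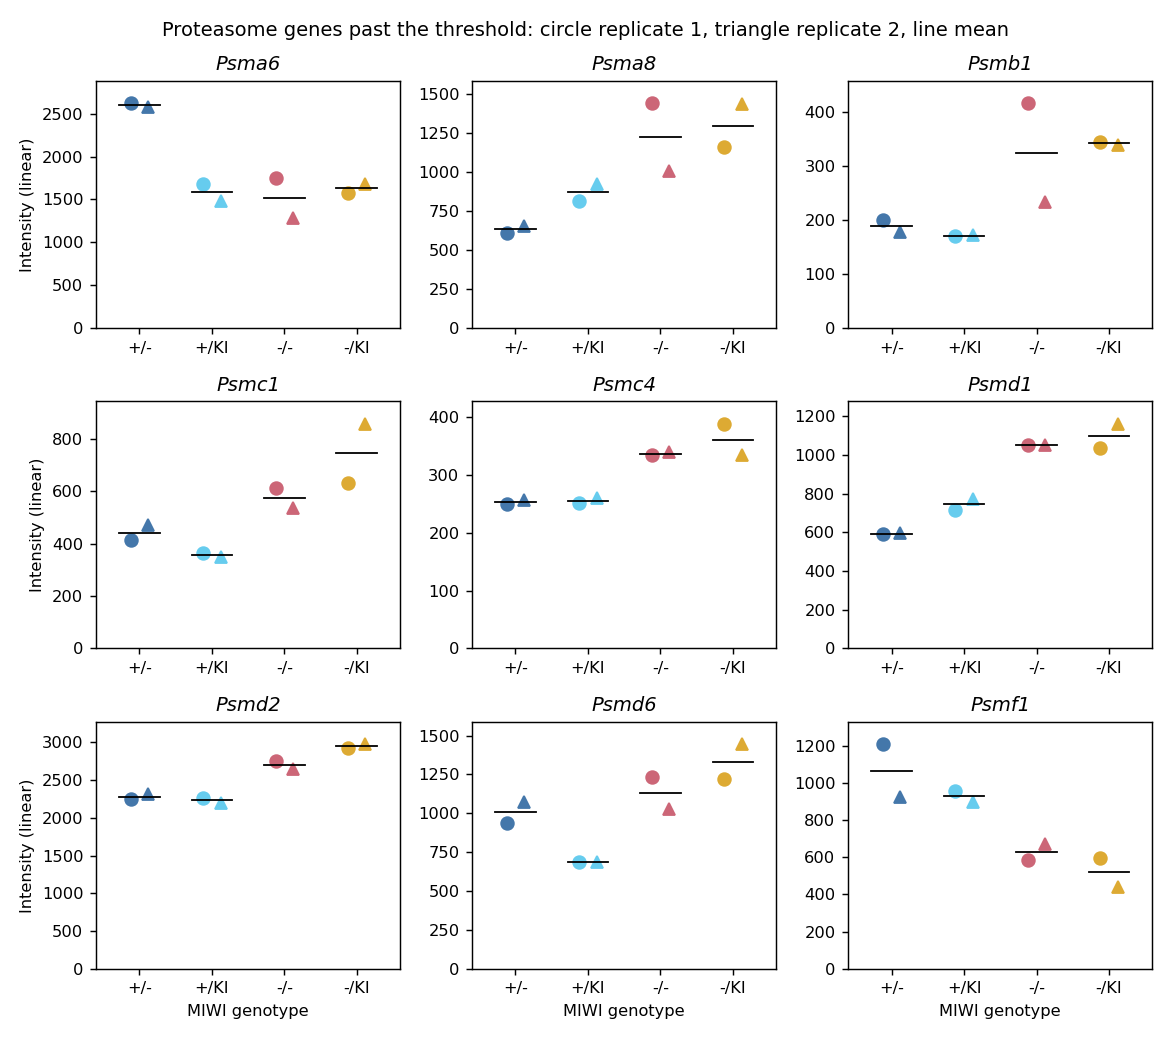
Linear intensity (vertical axes, from 0) of the 9 proteasome genes that passed adjusted p under 0.05 in at least 1 comparison, by MIWI genotype, with replicate 1 as a circle, replicate 2 as a triangle and the mean of both as a line. For Psmd1 the 4 arrays without a wild-type allele lie from 1034 to 1161 and the others from 589 to 773, while Psma6 is highest in MIWI +/- and Psmf1 is low without a wild-type allele.

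These counts moved when single arrays were left out, which leaves 1 array in that genotype and fewer samples in the fit. The share of all genes was not counted in these fits, so the counts below have no background to be read against. For the test without against with a wild-type allele, the count of 8 became 1 without MIWI +/- replicate 1, 2 without MIWI +/- replicate 2, 1 without either MIWI +/KI array and 5 without MIWI -/- replicate 1. It was 12 with MIWI -/- replicate 2 left out, 12 with MIWI -/KI replicate 1 left out, and 7 with its replicate 2 left out. In MIWI -/- against MIWI +/- the count of 3 became 0 without either MIWI +/- array, 1 without either MIWI +/KI array, 2 without MIWI -/- replicate 2 and 5 without either MIWI -/KI array. The count of 3 in MIWI -/KI against MIWI +/- became 0 without either MIWI +/- array, 1 without either MIWI +/KI array or MIWI -/KI replicate 2, and 6 without either MIWI -/- array. The count of 2 in MIWI -/KI against MIWI +/KI was 5 without either MIWI -/- array, 10 without MIWI -/KI replicate 1 and 0 without any of the other 5 arrays. Psmd1 without against with a wild-type allele passed in all 8 of these fits, with log2 differences from 0.64 to 0.73 over all 17 alternatives tried and adjusted p from 0.00143 to 0.0415.

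Among the 11 non-ATPase subunits of 19S, Psmd1, Psmd2 and Psmd6 rose without a wild-type allele and the others did not pass the test. Psmd1 encodes RPN2, the large scaffold at the base of the particle. Its intensity was 589 and 598 in MIWI +/-, 717 and 773 in MIWI +/KI, 1053 and 1051 in MIWI -/-, and 1034 and 1161 in MIWI -/KI. The arrays fall into 3 levels, lowest in MIWI +/-, in between in MIWI +/KI and highest in the genotypes without a wild-type allele, with no overlap between those. The log2 difference was 0.83 (SE 0.13, adjusted p 0.0107) in MIWI -/- against MIWI +/-, a 1.77-fold difference. In MIWI -/KI against MIWI +/- it was 0.88 (SE 0.13, adjusted p 0.00805), or 1.85-fold. Without against with a wild-type allele it was 0.69 (SE 0.09, adjusted p 0.00366). The smaller step from MIWI +/KI to MIWI -/KI, 0.56 (adjusted p 0.0835), and that from MIWI +/- to MIWI +/KI, 0.33 (adjusted p 0.382), did not pass. The first call was lost without MIWI +/- replicate 1 (adjusted p 0.105), MIWI +/- replicate 2 (0.103) or MIWI -/- replicate 2 (0.0533), the second without MIWI +/- replicate 1 (0.0871) or 2 (0.0797) and with only the 2 genotypes fitted (0.0635).

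Psmd2 encodes RPN1, the base subunit that docks ubiquitin shuttles and the deubiquitinase USP14. It read 2246 and 2313 in MIWI +/-, 2268 and 2191 in MIWI +/KI, 2753 and 2646 in MIWI -/-, and 2922 and 2973 in MIWI -/KI. The 4 arrays without a wild-type allele were all above the other 4, in the narrowest step of the 8 genes, with a log2 difference of 0.32 (SE 0.07, adjusted p 0.0314) or 1.25-fold. A further cluster of Psmd2 gave 0.34 (adjusted p 0.0455). The call was lost without MIWI +/- replicate 1 (adjusted p 0.139) or 2 (0.123), without MIWI +/KI replicate 1 (0.170) or 2 (0.203), without MIWI -/- replicate 1 (0.0702), and with no intensity trend in the variances (0.0742).

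Psmd6 encodes RPN7, a subunit of the lid. It read 935 and 1076 in MIWI +/-, 685 and 684 in MIWI +/KI, 1231 and 1027 in MIWI -/-, and 1220.2 and 1443 in MIWI -/KI. MIWI +/KI was lowest and MIWI -/KI highest, and the ranges of MIWI +/- and MIWI -/- overlapped. Its log2 difference was 0.95 (SE 0.15, adjusted p 0.0259) in MIWI -/KI against MIWI +/KI, or 1.94-fold, and 0.16 (adjusted p 0.78) in MIWI -/- against MIWI +/-. The mean of both, without against with a wild-type allele, was 0.56 (SE 0.11, adjusted p 0.0216), and the difference between both, 0.79 (adjusted p 0.212), did not pass. This mean was lost without MIWI +/- replicate 1 (adjusted p 0.109) or 2 (0.0636), MIWI +/KI replicate 1 (0.117) or 2 (0.116), or MIWI -/- replicate 1 (0.0617). The call against MIWI +/KI was lost without MIWI +/- replicate 1 (adjusted p 0.0664) or 2 (0.0668), MIWI +/KI replicate 1 (0.25) or 2 (0.252), or MIWI -/KI replicate 2 (0.0873), and with array weights (0.0525) or only the 2 genotypes fitted (0.0876).

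The remaining 8 lid and base subunits had log2 differences by wild-type allele (without minus with) between -0.0022 (Psmd8, 95% interval -0.19 to 0.19) and 0.30 (Psmd11, adjusted p 0.113). Psmd11, which encodes the lid subunit RPN6, read 771 and 833 in MIWI +/-, 784 and 846 in MIWI +/KI, 984 and 983 in MIWI -/-, and 953 and 1065 in MIWI -/KI, and its arrays did not overlap between the sides. Psmd14, the deubiquitinase of the lid, read 307 and 296 in MIWI +/-, 279 and 259.8 in MIWI +/KI, 393 and 307 in MIWI -/-, and 291 and 388 in MIWI -/KI, with a difference of 0.26 (adjusted p 0.393) and overlapping arrays. Psmd4, a ubiquitin receptor, read 417 and 468 in MIWI +/-, 285 and 286 in MIWI +/KI, 469.7 and 305 in MIWI -/-, and 417 and 440.4 in MIWI -/KI. Its MIWI +/KI arrays were the lowest of the 8 and it differed by -0.63 (adjusted p 0.3) from MIWI +/-. Psmd3, Psmd7, Psmd12 and Psmd13, subunits of the lid, lay between 0.12 and 0.24 by wild-type allele.

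**Figure D2:**
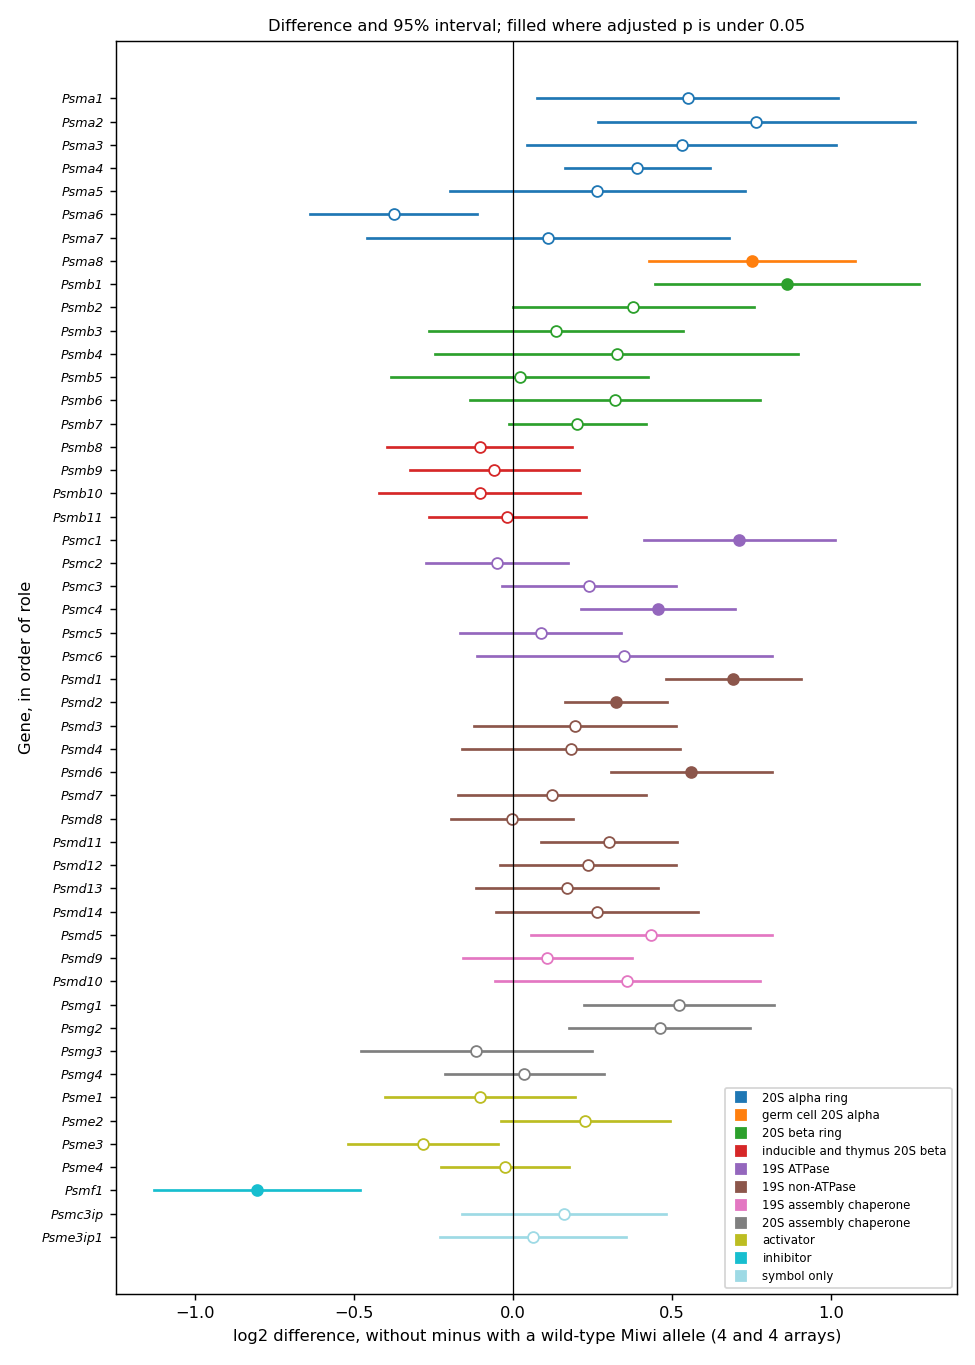
Log2 difference of each of the 50 genes without minus with a wild-type Miwi allele (horizontal axis, 4 arrays on each side), with its 95% confidence interval as a line, coloured by role and filled where the adjusted p is under 0.05. The 8 filled points run from -0.80 (Psmf1) to 0.86 (Psmb1), and most 19S and 20S genes lie to the right of 0 with intervals that reach or come near it.

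Of the 6 ATPases, Psmc1 and Psmc4 rose. Psmc1 encodes RPT2, whose tail helps to open the gate of the 20S barrel. It read 412 and 471 in MIWI +/-, 363 and 350.0 in MIWI +/KI, 611 and 536 in MIWI -/-, and 632 and 857 in MIWI -/KI. The lowest array without a wild-type allele, 536, was above the highest array with one, 471. The log2 difference was 0.71 (SE 0.13, adjusted p 0.016), or 1.64-fold, and in MIWI -/KI against MIWI +/KI it was 1.05 (SE 0.18, adjusted p 0.0357), or 2.06-fold. On a further cluster of Psmc1 these were 0.82 (adjusted p 0.0521) and 1.24 (adjusted p 0.0807), past no threshold. The call without against with was lost without MIWI +/- replicate 1 (adjusted p 0.0855) or 2 (0.0570), MIWI +/KI replicate 1 (0.0840) or 2 (0.0933), or MIWI -/- replicate 1 (0.0553). That against MIWI +/KI was lost without either MIWI +/- array (0.0840 and 0.0834), either MIWI +/KI array (0.270 and 0.312) or MIWI -/KI replicate 2 (0.0858), over the mean of both clusters (0.0549), with arrays centred on their medians (0.0565), with array weights (0.0536) and with only the 2 genotypes fitted (0.117).

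Psmc4 encodes RPT3. It read 249.8 and 256 in MIWI +/-, 251 and 259 in MIWI +/KI, 334 and 339 in MIWI -/-, and 388 and 334 in MIWI -/KI. Arrays without a wild-type allele were all above those with one, with a log2 difference of 0.45 (SE 0.10, adjusted p 0.0417), or 1.37-fold. This call had the largest adjusted p of the 8. It was lost without MIWI +/- replicate 1 (adjusted p 0.168) or 2 (0.161), MIWI +/KI replicate 1 (0.228) or 2 (0.197), or MIWI -/- replicate 1 (0.0902) or 2 (0.0830), and after a second quantile normalization (0.124).

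Psmc2, which encodes RPT1, had differences of opposite sign in the 2 pairs of genotypes, neither past the threshold. It read 1799 and 1899 in MIWI +/-, 1249 and 1188 in MIWI +/KI, 1484 and 1217 in MIWI -/-, and 1484 and 1642 in MIWI -/KI. MIWI +/- was highest and MIWI +/KI lowest, with a log2 difference of -0.46 (adjusted p 0.121) in MIWI -/- against MIWI +/- and 0.36 (adjusted p 0.249) in MIWI -/KI against MIWI +/KI, which cancel to -0.05 (95% interval -0.27 to 0.17). Psmc3, Psmc5 and Psmc6 lay between 0.09 and 0.35 by wild-type allele. Psmc6 was highest in MIWI -/KI replicate 2, at 467, with the other 7 between 213 and 305.

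In all, 5 of the 17 19S subunits rose without a wild-type allele (all genes 4.33%), 15 of 17 differences were positive, and their median was 0.24. The same 17 genes had 2 calls in MIWI -/KI against MIWI +/KI, both higher (all genes 1.14%), 16 positive differences and a median of 0.45. In that comparison 15 of 17 had arrays that did not overlap and were higher, against 25% of all genes. In MIWI -/- against MIWI +/- they had 1 call, higher (all genes 2.6%), 11 positive differences and a median of 0.16. Psmd5, Psmd9 and Psmd10, chaperones that assemble the 19S base, had 0 calls and positive differences of 0.43 (adjusted p 0.204), 0.11 (adjusted p 0.738) and 0.36 (adjusted p 0.371) for the same contrast of alleles. Psmd10, gankyrin, read 338 and 380.4 in MIWI +/-, 237 and 208 in MIWI +/KI, 382 and 247 in MIWI -/-, and 354 and 513 in MIWI -/KI, lowest in MIWI +/KI.

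The constitutive 20S rings have 7 alpha and 7 beta subunits, and 1 of these 14 rose without a wild-type allele (all genes 4.33%), a share near the background. Psmb1, a beta subunit with no catalytic site, read 199.6 and 178 in MIWI +/-, 169.7 and 173 in MIWI +/KI, 417 and 233 in MIWI -/-, and 345 and 340.3 in MIWI -/KI. Every array without a wild-type allele was above every array with one, but MIWI -/- replicate 2 lay close to the lower side and far from replicate 1. The difference was 0.86 (SE 0.18, adjusted p 0.0292), or 1.82-fold, the highest of the 50 genes. It was lost without MIWI +/- replicate 1 (adjusted p 0.0896) or 2 (0.123), MIWI +/KI replicate 1 (0.126) or 2 (0.115), or MIWI -/KI replicate 2 (0.0596).

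The alpha subunit Psma6 fell in MIWI -/- against MIWI +/-. It read 2619.8 and 2578 in MIWI +/-, 1676 and 1486 in MIWI +/KI, 1753 and 1281 in MIWI -/-, and 1579 and 1677 in MIWI -/KI. Both MIWI +/- arrays were above all 6 others, which overlapped each other. Psma6 differed by -0.79 (SE 0.16, adjusted p 0.0312) in MIWI -/- against MIWI +/-, or 1.73-fold lower. MIWI -/KI and MIWI +/KI differed from MIWI +/- by -0.68 (adjusted p 0.0574) and -0.72 (adjusted p 0.158), which did not pass. MIWI -/KI and MIWI +/KI had a difference of 0.04 (95% interval -0.33 to 0.41). The call was lost without MIWI +/- replicate 1 (adjusted p 0.192) or 2 (0.184), MIWI +/KI replicate 1 (0.0753) or 2 (0.0751), or MIWI -/- replicate 2 (0.114), with arrays centred on their medians (0.0529) and with only the 2 genotypes fitted (0.0785).

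The other 20S genes did not pass a test in any of the 7 comparisons. Psma3 read 686 and 755 in MIWI +/-, 579 and 499 in MIWI +/KI, 1160.4 and 592 in MIWI -/-, and 842 and 1123 in MIWI -/KI. Psma2 read 108 and 129 in MIWI +/-, 99.8 and 109.7 in MIWI +/KI, 227 and 115 in MIWI -/-, and 196 and 249 in MIWI -/KI, with 0.76 (adjusted p 0.0869) without against with a wild-type allele. Psma4 read 626 and 622 in MIWI +/-, 607 and 603 in MIWI +/KI, 901 and 749.9 in MIWI -/-, and 788 and 789 in MIWI -/KI, with 0.39 (adjusted p 0.0602) and no overlap between the sides. The catalytic subunits Psmb5, Psmb6 and Psmb7 differed by 0.02 (adjusted p 0.97), 0.32 (adjusted p 0.492) and 0.20 (adjusted p 0.318). Psmb6 read 1348 and 1208 in MIWI +/-, 824 and 837 in MIWI +/KI, 1657 and 953 in MIWI -/-, and 1630.3 and 1061 in MIWI -/KI, so its 2 MIWI +/KI arrays were the lowest of the 8. Psmb4, a structural beta subunit, read 566 and 462 in MIWI +/-, 326 and 269.9 in MIWI +/KI, 634 and 291 in MIWI -/-, and 660.1 and 464 in MIWI -/KI, and its MIWI -/- arrays differed more than those of any other genotype.

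In MIWI -/KI against MIWI +/KI, all 14 ring genes had positive log2 differences, with a median of 0.62 (all genes -0.03). In 12 of 14 the arrays did not overlap and MIWI -/KI was higher, against 25% of all genes. In MIWI +/KI against MIWI +/-, 13 of 14 were negative, with a median of -0.44 (all genes 0.02), and 12 of 14 did not overlap and were lower, against 26% of all genes. Both comparisons use the same 2 MIWI +/KI arrays. There the ring genes' median log2 deviation from the gene means was -0.34 and -0.40, and it was -0.33 in MIWI -/- replicate 2. Whether preparation or genotype set these levels was not tested. By limma with adjustment over all clusters, 0 of 14 passed in either, with 9 higher at an unadjusted p under 0.05 in the first and 1 lower in the second. No share of all genes is given for counts at an unadjusted p, here or below, so they have no background to be read against. Over all 50 genes, MIWI +/KI against MIWI +/- had 0 calls (all genes 0.0953% in both directions, 0.0251% higher and 0.0702% lower), with 8 lower and 2 higher at an unadjusted p under 0.05. The smallest p values in it belonged to Psma6 (adjusted p 0.158), Psmc2 (0.163) and Psmd6 (0.238), all lower. With array weights it had 8 calls and with only these 2 genotypes fitted 11, all lower. The share of all genes was not counted in those 2 fits, so these counts have no background to be read against. Without overlap, 31 of the 50 were lower (all genes 26%) and 3 higher (all genes 30.9%).

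**Figure D3:**
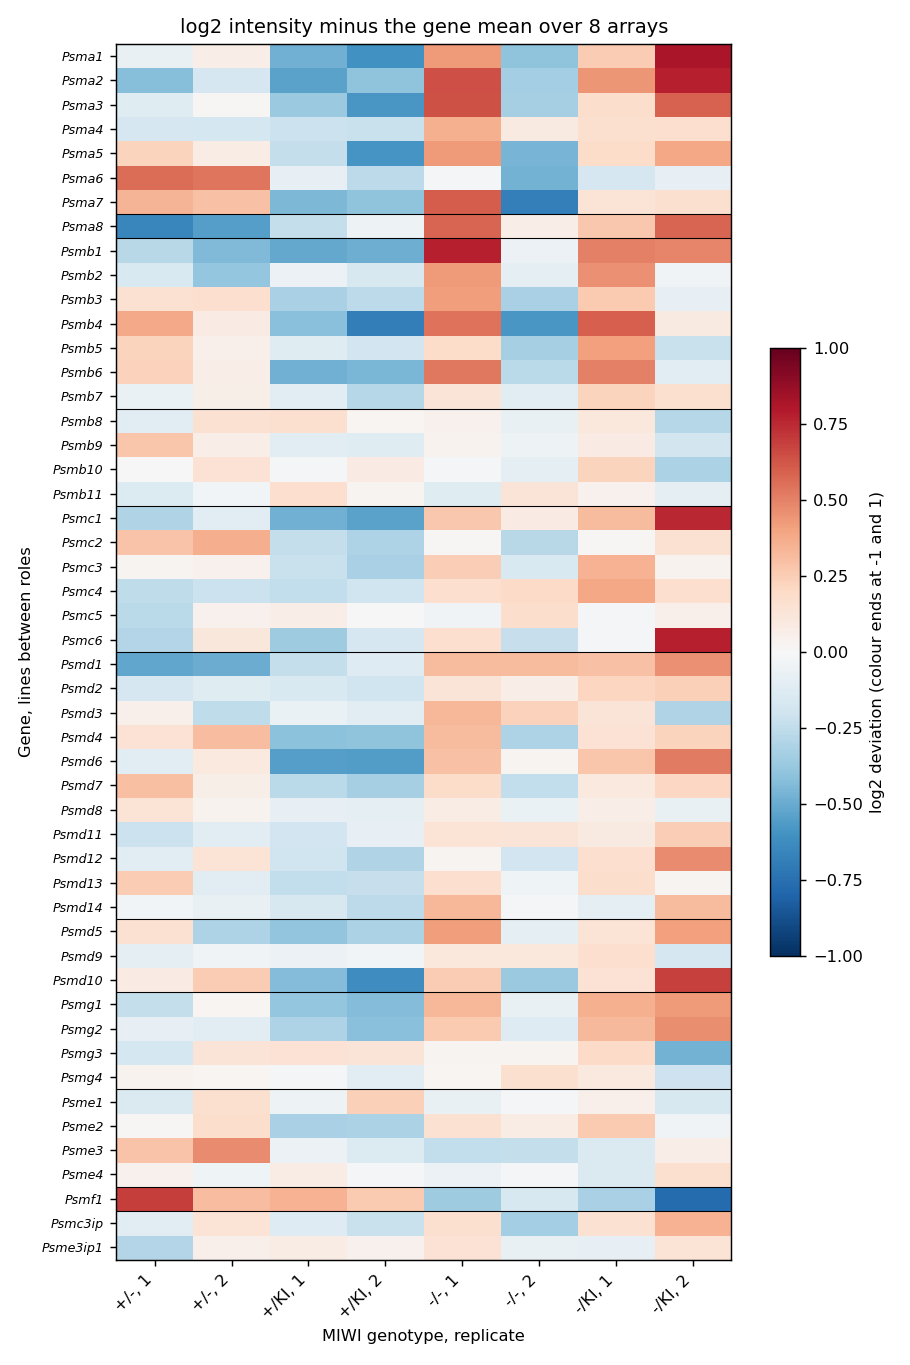
Log2 intensity of the 50 genes (rows, by role, with lines between roles) on the 8 arrays (columns, MIWI genotype and replicate), each as the deviation from that gene's mean over 8 arrays, in colour from -1 to 1. Both MIWI +/KI columns are blue across most 20S and 19S genes, and the 2 MIWI -/- columns differ in the 20S rows.

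The 2 MIWI -/- preparations disagreed on the 20S core. All 14 ring genes were higher in replicate 1 than in replicate 2, by a median of 0.81 on the log2 scale, against -0.05 over all genes. The 19S subunits were higher in replicate 1 in 15 of 17, by a median of 0.21. Within the other genotypes the median of replicate 1 minus replicate 2 over the ring genes was 0.04 (MIWI +/-), 0.08 (MIWI +/KI) and 0.01 (MIWI -/KI). The ring genes' median deviation was 0.43 in MIWI -/- replicate 1 and -0.33 in replicate 2. In MIWI +/KI it was -0.34 and -0.40, near that of MIWI -/- replicate 2, and in MIWI -/KI 0.26 and 0.16. Over all clusters without a missing value, the log2 intensities of MIWI -/- replicate 2 correlated at 0.9836 with replicate 1. With the MIWI +/KI arrays the correlation was 0.9855 and 0.9858, and with MIWI -/KI replicates 1 and 2 it was 0.9872 and 0.9685. Whether a difference between preparations set these levels was not tested.

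Markers of other cells also differed between arrays, not all in the pattern of the 20S rings. By median, Sertoli cell markers lay above their means in MIWI +/KI, where the rings lay below theirs. Leydig cell markers (9 of 12 measured, 1 of them below the array median on all arrays, none at 0) were higher in MIWI -/- replicate 1 than in replicate 2 for 7 of 9, by a median of 0.81. Their median deviation was 0.49 and -0.24 in those 2 arrays, -0.33 and -0.15 in MIWI +/KI, and 0.30 and 0.08 in MIWI -/KI. The summed intensity of these markers was 1232 to 1254 in MIWI +/-, 1253 to 1364 in MIWI +/KI, 1266 to 1688 in MIWI -/- and 1331 to 1454 in MIWI -/KI. Of the Leydig markers, 0 passed the test without against with a wild-type allele. Spermatocyte markers (23 of 25 measured, none at 0) deviated by 0.17 and -0.09 in MIWI -/- and by -0.01 and 0.44 in MIWI -/KI. Sertoli cell markers (19 of 20 measured, 3 of them below the array median on all arrays, none at 0) deviated by 0.44 and 0.18 in MIWI +/-, 0.04 and 0.18 in MIWI +/KI, -0.07 and -0.35 in MIWI -/-, and -0.06 and -0.44 in MIWI -/KI. The part of these cells in the proteasome values was not tested.

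**Figure D4:**
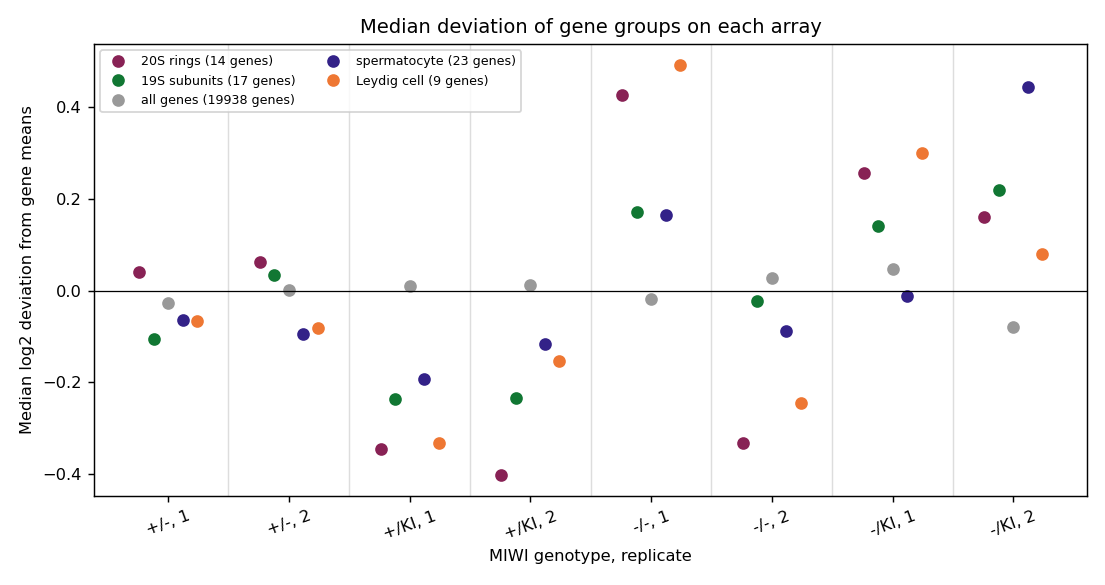
Median log2 deviation from the gene means (vertical axis) of the 14 genes of the 20S rings, the 17 genes of the 19S subunits, 23 spermatocyte markers, 9 Leydig cell markers and all 19938 genes, on each of the 8 arrays (horizontal axis, MIWI genotype and replicate). The 20S rings lie at 0.43 and -0.33 in the 2 MIWI -/- arrays and at -0.34 and -0.40 in MIWI +/KI. The Leydig markers differ between the same MIWI -/- arrays.

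The germ cell subunit Psma8 rose while Psma7, whose place it takes in the alpha ring, did not pass the test. Psma8 read 611 and 656 in MIWI +/-, 815 and 927 in MIWI +/KI, 1442 and 1009 in MIWI -/-, and 1159 and 1438 in MIWI -/KI. MIWI +/- was lowest, MIWI +/KI above it, and all 4 arrays without a wild-type allele higher still. The log2 difference was 0.93 (SE 0.20, adjusted p 0.0387) in MIWI -/- against MIWI +/-, or 1.90-fold, and 1.03 (SE 0.20, adjusted p 0.0253) in MIWI -/KI against MIWI +/-, or 2.04-fold. Without against with a wild-type allele it was 0.75 (SE 0.14, adjusted p 0.0176), while MIWI -/KI against MIWI +/KI, 0.57 (adjusted p 0.205), did not pass. Psma7 read 109.7 and 106 in MIWI +/-, 63.5 and 65.4 in MIWI +/KI, 132 and 54.0 in MIWI -/-, and 95.2 and 96.6 in MIWI -/KI, near the array medians and with a 95% interval of -0.46 to 0.68 for the same difference.

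The calls of Psma8 depended on the arrays left out. That of MIWI -/- was lost without MIWI +/- replicate 1 (adjusted p 0.229) or 2 (0.180), MIWI +/KI replicate 1 (0.0870) or 2 (0.0876), or MIWI -/- replicate 1 (0.118), and with arrays centred (0.0660) or only 2 genotypes fitted (0.0741). That of MIWI -/KI was lost without MIWI +/- replicate 1 (adjusted p 0.175) or 2 (0.134), MIWI +/KI replicate 1 (0.0605) or 2 (0.0610), or MIWI -/KI replicate 2 (0.104), and with array weights (0.0736) or only 2 genotypes fitted (0.0515). Without against with a wild-type allele it was lost without MIWI +/- replicate 1 (0.0822) or 2 (0.0676) and MIWI +/KI replicate 1 (0.101) or 2 (0.0646). Psma8 is also expressed in spermatocytes, whose summed marker intensity was 14130 to 15240 in MIWI +/-, 14270 to 14530 in MIWI +/KI, 14430 to 16620 in MIWI -/- and 14810 to 17540 in MIWI -/KI. Of the spermatocyte markers 19 of 23 had a positive difference without against with a wild-type allele, with a median of 0.19. Their part in the Psma8 values was not tested.

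The inhibitor Psmf1 was the 1 gene that fell without a wild-type allele. It encodes PI31, which binds the 20S barrel and blocks it in vitro. It read 1208 and 926 in MIWI +/-, 954 and 900.1 in MIWI +/KI, 587 and 669.6 in MIWI -/-, and 599 and 440.0 in MIWI -/KI. The 4 arrays without a wild-type allele lay from 440 to 669.6 and the other 4 from 900 to 1208, with no overlap. The log2 difference was -0.80 (SE 0.14, adjusted p 0.013), or 1.75-fold lower. Between MIWI -/KI and MIWI +/- it was -1.04 (SE 0.20, adjusted p 0.0239), or 2.06-fold lower. MIWI -/- against MIWI +/-, -0.75 (adjusted p 0.0816), and MIWI -/KI against MIWI +/KI, -0.85 (adjusted p 0.0829), did not pass on their own. The first call was lost without either MIWI +/KI array (adjusted p 0.0789 and 0.0636) and without MIWI +/- replicate 1 (0.0651). The second was lost without MIWI +/- replicate 1 (adjusted p 0.194) or 2 (0.0685), MIWI +/KI replicate 1 (0.0639) or 2 (0.0642), or MIWI -/KI replicate 2 (0.0784), and with array weights (0.0654) or only 2 genotypes fitted (0.0987).

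Of the 4 activators none passed. Psme4 (PA200), the cap linked to histone removal in spermatids, read 3142 and 2948 in MIWI +/-, 3201 and 3005 in MIWI +/KI, 2927 and 3024 in MIWI -/-, and 2755 and 3399.7 in MIWI -/KI. Its genotypes overlapped, with a difference of -0.03 and a 95% interval of -0.23 to 0.17 between arrays without a wild-type allele and those with one. Psme3, the nuclear activator PA28 gamma, read 857 and 977 in MIWI +/-, 674 and 637 in MIWI +/KI, 593 and 594 in MIWI -/-, and 635 and 736 in MIWI -/KI. Its MIWI +/- arrays were the highest, as for Psma6, and the difference in MIWI -/- against MIWI +/- was -0.62 (adjusted p 0.0517), just short of the threshold. Psme1 and Psme2, which form the interferon-inducible activator, differed by -0.10 (adjusted p 0.78) and 0.23 (adjusted p 0.373) without against with a wild-type allele.

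The inducible catalytic subunits of the immunoproteasome (Psmb8, Psmb9 and Psmb10) and the thymus subunit Psmb11 did not pass in any comparison. Psmb8, Psmb10 and Psmb11 lay below the median intensity of all 8 arrays, where an array separates levels poorly, as did the assembly chaperone genes Psmg3 and Psmg4. The other 45 members lay in the brighter part of all clusters by mean. For the inducible group, differences by wild-type allele ran from -0.11 (adjusted p 0.787) for Psmb10 to -0.02 (adjusted p 0.963) for Psmb11. Of 11 measured genes for antigen presentation and interferon signalling, 3 fell without a wild-type allele (all genes 3.93%), all of class II presentation: H2-Aa by 0.56 (SE 0.10, adjusted p 0.0171), H2-Ab1 by 0.69 (SE 0.13, adjusted p 0.0213) and Cd74 by 0.52 (SE 0.11, adjusted p 0.0358). Of these, H2-Aa read 63.2 to 132 and Cd74 46.5 to 101, near the array medians. The sides overlapped for Cd74, with 66.7 and 83.9 in MIWI -/- against 77.0 and 75.6 in MIWI +/-.

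The chaperones that assemble the 20S rings (Psmg1 to Psmg4) had 0 calls. Psmg1 read 271 and 325 in MIWI +/-, 244 and 237 in MIWI +/KI, 403 and 304 in MIWI -/-, and 410.0 and 429 in MIWI -/KI, with 0.52 (adjusted p 0.0557) by wild-type allele and 0.80 (adjusted p 0.0796) in MIWI -/KI against MIWI +/KI. Psmg2, its partner, read 315 and 307 in MIWI +/-, 268 and 249 in MIWI +/KI, 399.8 and 304 in MIWI -/-, and 416 and 459 in MIWI -/KI, with 0.46 (adjusted p 0.0716) and 0.76 (adjusted p 0.0811). Both lay just short of the threshold, while Psmg3 (-0.12) and Psmg4 (0.04) were dim. Psmc3ip and Psme3ip1, named by symbol only, differed by 0.16 (adjusted p 0.658) and 0.06 (adjusted p 0.874).

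The step without a wild-type allele was compared between the pairs of genotypes that share no array. These were MIWI -/- against MIWI +/-, and the knock-in pair MIWI -/KI against MIWI +/KI. In all, 24 of the 50 genes were higher in both (all genes 5386 of 19938) and 5 lower in both (all genes 5955 of 19938). Together this is 58% in the same direction, against 56.9% of all genes. The 19S subunits had 10 of 17 higher in both and 0 lower in both. For the 20S rings it was 7 of 14 and 0. The difference between the 2 steps passed for 0 of the 50 genes and 0% of all genes in limma. At an unadjusted p under 0.05 there were 12 of the 50, all with a more positive log2 difference in the knock-in pair. No share of all genes is given for that count, so it has no background to be read against. It also draws on the same MIWI +/KI arrays. The 3 smallest p values belonged to Psmc2 (0.82, adjusted p 0.168), Psma6 (0.84, adjusted p 0.202) and Psmd6 (0.79, adjusted p 0.212). Without MIWI -/- replicate 1 the count of 0 became 1.

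**Figure D5:**
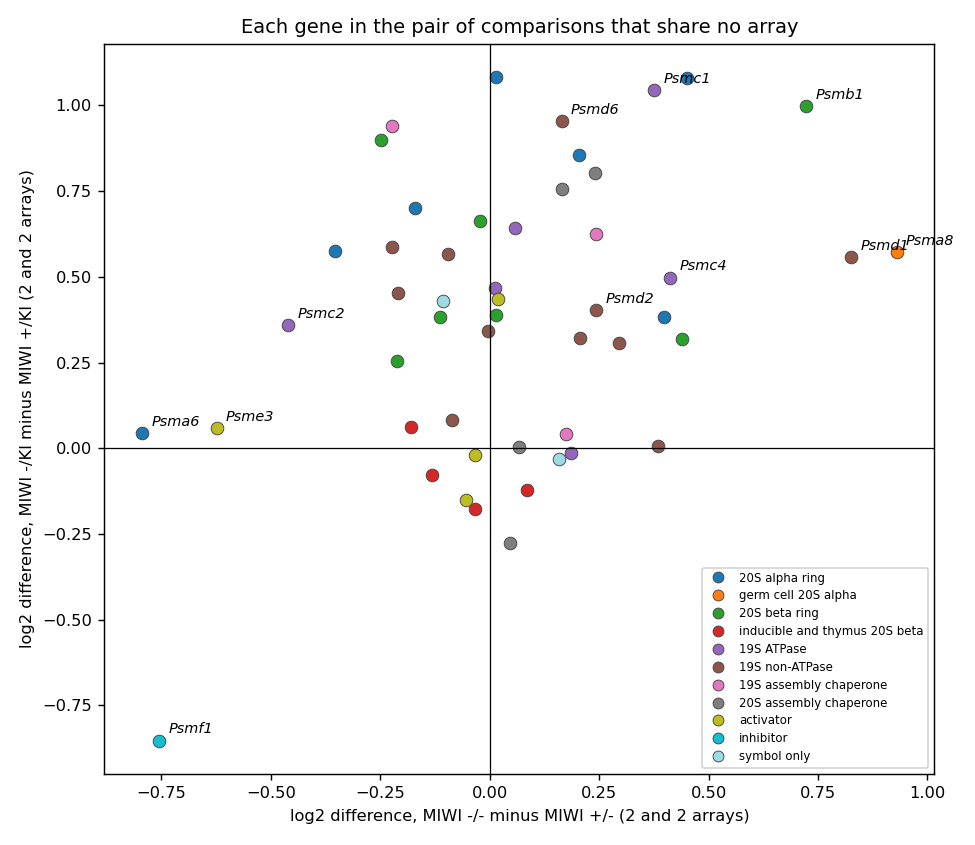
Each of the 50 genes by its log2 difference in MIWI -/- minus MIWI +/- (horizontal axis) and in MIWI -/KI minus MIWI +/KI (vertical axis), 2 arrays a genotype, coloured by role, with the genes that passed a test and Psmc2 and Psme3 named. Psmd1, Psma8 and Psmb1 lie high on both axes, Psmf1 low on both, and 24 genes lie in the upper right.

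Between MIWI -/KI and MIWI -/- no proteasome gene passed. In limma 0 of the 50 genes passed (all genes 0%), with 1 at an unadjusted p under 0.05, Psmd12 (0.40, adjusted p 0.998). Next by p were Psmc1 (0.36) and Psmd3 (-0.37). The median difference was 0.10, and 36 of 50 were positive. The intervals of Psmd1 (-0.24 to 0.36), Psma8 (-0.36 to 0.56) and Psmf1 (-0.75 to 0.17) leave room for differences in either direction.

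Among genes that work with the proteasome, 28 of 42 listed symbols (some of them older names of the same gene) were measured, and 2 rose and 2 fell without a wild-type allele (all genes 8.26%), with a median difference of 0.08. Ubqlnl, a ubiquilin-like gene of the testis whose family carries ubiquitinated proteins to the proteasome, read 1982 and 2009 in MIWI +/-, 1144 and 1014 in MIWI +/KI, 129 and 136 in MIWI -/-, and 217 and 209.8 in MIWI -/KI. No genotypes overlap, those without a wild-type allele lie far below the others, and the difference was -3.13 (SE 0.10, adjusted p 8.94e-06). Ddi1, a retroviral-like protease of the family that activates NFE2L1, read 2856 and 3027 in MIWI +/-, 2289 and 2162 in MIWI +/KI, 1756 and 1622 in MIWI -/-, and 2049.6 and 2094 in MIWI -/KI, a difference of -0.45 (SE 0.08, adjusted p 0.0108). Zfand5, a zinc finger protein that stimulates the proteasome, read 207 and 225 in MIWI +/-, 254 and 224 in MIWI +/KI, 455 and 398 in MIWI -/-, and 424 and 509.5 in MIWI -/KI, a difference of 0.97 (SE 0.12, adjusted p 0.00249). Nfe2l1 itself read 236 and 253 in MIWI +/-, 326 and 329.8 in MIWI +/KI, 386 and 379 in MIWI -/-, and 383 and 392 in MIWI -/KI, a difference of 0.45 (SE 0.10, adjusted p 0.0356), with MIWI +/KI between MIWI +/- and the rest. In MIWI -/- against MIWI +/- the VCP cofactor Nploc4 rose too (0.57, adjusted p 0.0481). The 20S assembly factor Pomp (0.02, adjusted p 0.966), the deubiquitinases Usp14 (0.50, adjusted p 0.146) and Uchl5 (0.07, adjusted p 0.899), and Nfe2l2 (-0.15, adjusted p 0.646) did not pass. Sem1, the smallest subunit of the lid, read 577 and 465.0 in MIWI +/-, 328 and 307 in MIWI +/KI, 744 and 335 in MIWI -/-, and 544 and 477 in MIWI -/KI, with overlapping sides and a difference of 0.31 (adjusted p 0.59).

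Of 26 listed genes of protein turnover in spermatids, mostly of ubiquitin ligation but with the deubiquitinases Usp2, Uchl1 and Uchl3 among them, 23 were measured. Without a wild-type allele 4 fell (all genes 3.93%) and 1 rose (all genes 4.33%). The testis RING finger genes Rnf133 and Rnf148 fell by 1.51 (SE 0.10, adjusted p 9.72e-05) and 1.26 (SE 0.13, adjusted p 0.00102). Rnf133 read 2228 and 2587 in MIWI +/-, 1270.2 and 1167 in MIWI +/KI, 497 and 469 in MIWI -/-, and 714 and 773 in MIWI -/KI, so MIWI +/KI lay between MIWI +/- and the genotypes without a wild-type allele. Ube2j1, a ubiquitin-conjugating enzyme of the endoplasmic reticulum, fell by 0.67 (SE 0.11, adjusted p 0.00959), and Klhl10, a cullin adaptor of spermatids, by 0.49 (SE 0.08, adjusted p 0.00784). Ube2u, another conjugating enzyme, rose by 0.56 (SE 0.13, adjusted p 0.0403).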

How the data were processed

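Per the submitters' processing notes, the authors summarised the arrays with RMA (version not given in the sources used here). The deposited values are intensities on a linear scale, 1 per transcript cluster and array. In 8 cells of other genes the decimal separator was lost, and these were treated as missing. Log2 of the deposited intensity was fitted in limma 3.58.1 (R 4.3.3) over 35512 clusters and 8 arrays, with 1 mean per genotype and variances moderated along intensity (residual degrees of freedom 4, prior 3.976). P-values are two-sided, were adjusted by Benjamini-Hochberg across every cluster, and were called under 0.05. The median SE of a difference between genotypes was 0.172, SE is limma's moderated standard error, and intervals are at 95%.

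The 50 genes had 56 clusters, and 5 genes had more than 1. A cluster naming both Psme2b and Psme2 was left out. Members, gene lists and tests were chosen with earlier results of these data known. Named were members past the threshold in any comparison, the 3 smallest p where fewer than 3 passed, the largest and smallest difference of each role, Piwil1, and up to 6 genes past the threshold per pathway list and 4 per marker list; further genes were named after their values were seen. The scripts were tested on simulated data. Symbols came from the platform annotation, and all 50 matched RefSeq by Entrez ID. Probe positions were not used, so cross-hybridisation was not examined.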

Additional observations from a re-analysis of the deposited data

Results flagged for a closer look

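Psmc2, the gene of the 19S ATPase RPT1, had log2 differences of opposite sign without a wild-type allele in the 2 pairs of genotypes that share no array. Its log2 difference was -0.46 in MIWI -/- against MIWI +/- (adjusted p 0.121 in limma) and 0.36 in MIWI -/KI against MIWI +/KI (adjusted p 0.249), and every array of each pair lay on its side. The difference between these differences was 0.82, with an adjusted p of 0.168, so it did not pass the test.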

How the results depend on the processing

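Of 16 calls of members, each under 17 or 18 alternatives (280 in all), 193 kept their side of the threshold, 87 no longer passed and 0 reversed; the cause was not tested where arrays were kept, and leaving out an array also leaves fewer samples. The count of members in MIWI -/- against MIWI +/- (3) was 1 with arrays centred on their medians, 5 with array weights, 5 over the brighter clusters alone (above the median by mean), 1 with only the groups compared, and 0 to 5 without single arrays. In MIWI -/KI against MIWI +/- (3) it was 1 with array weights, 5 over the brighter clusters, 0 with only the groups compared, and 0 to 6 without single arrays. In MIWI -/KI against MIWI +/KI (2) it was 1 on averaging each gene's clusters, 1 with centred arrays, 0 with array weights, 8 over the brighter clusters, 0 with only the groups compared, and 0 to 10 without single arrays. In MIWI +/KI against MIWI +/- (0) it was 8 with array weights, and 11 in a fit of those 2 groups. Without against with a wild-type allele (8) it was 1 to 12 without single arrays, and the difference of the differences (0) was 0 to 1. In MIWI -/KI against MIWI -/- it was 0 throughout. The share of all genes was not counted in any of these alternative fits.

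Replicate numbers did not pair the samples: deviations of same-numbered arrays correlated from -0.269 to 0.262 over 6 pairs of genotypes. With a replicate block the counts were 2, 3, 2, 0 and 0 in the comparisons of 2 genotypes in the order above, 7 for the contrast by wild-type allele, and 0 for the difference of the differences. With the block, Psma8 in MIWI -/- (adjusted p 0.0551) and Psmc4 by wild-type allele (adjusted p 0.0583) did not pass, and no other call was lost.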
